A study of Homo sapiens with 4 samples.

Results

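The subject is the core set of the Wnt pathway in a neuroblastoma line: every protein-coding gene whose symbol is WNT or FZD with a number, together with LRP5, LRP6, ROR1, ROR2, RYK, the Dishevelled genes, CTNNB1, APC, AXIN1, AXIN2, the TCF/LEF factors, SFRP1, SFRP2, FRZB, DKK1, DKK2, DKK3, LGR4, LGR5, RNF43, ZNRF3, NKD1, PORCN and WLS. They were taken by name, with no measured value in the rule, and came to 58 of the 64252 rows of the count table. Earlier results of these data were known when the set was chosen. SK-N-BE(2) is a human neuroblastoma cell line with an amplified MYCN gene. It was transfected with a short hairpin RNA against CDK5RAP3 (shCDK5RAP3, 2 libraries) or with a control hairpin (shControl, 2 libraries), and gene expression was measured by RNA sequencing. CDK5RAP3 encodes a partner of the ligase that attaches the small protein UFM1 to its targets at the endoplasmic reticulum. Both groups share the parental line, and each received a hairpin, either against CDK5RAP3 or a control. The sources used here give neither the number of hairpins nor the time after transfection.

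Wnt proteins are lipid-modified secreted ligands. They bind Frizzled receptors together with LRP5 or LRP6, and Dishevelled then stops the complex of APC, axin and kinases that otherwise marks beta-catenin for degradation, so that beta-catenin can reach the TCF/LEF factors on its target genes. Other branches, through ROR or RYK receptors and the planar cell polarity proteins, act without beta-catenin. R-spondin receptors of the LGR family and the ligases RNF43 and ZNRF3 set how much Frizzled stays on the cell surface. In the developing embryo, Wnt signals take part in forming the neural crest, the tissue that gives rise to sympathetic neurons.

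The hairpin's target was lower, as its label says. CDK5RAP3 had 1669 and 1689 counts in the shCDK5RAP3 libraries, against 2529 and 2866 in the shControl libraries. In CPM, counts scaled by TMM-adjusted library size, it averaged 57.8 ± 0.966 in shCDK5RAP3 and 93.0 ± 7.90 in shControl (SD, n = 2 each), which left 62.1% of the control level (log2 fold change -0.69 ± 0.08 SE, edgeR adjusted p = 0.000163). The libraries held 28653689 and 30138393 counts in shCDK5RAP3 and 28721740 and 28755837 in shControl. The chi-square per degree of freedom was 6.77 between the shCDK5RAP3 libraries and 8.65 between the shControl libraries, so replicates spread beyond counting error. Whether they were separate cultures is not in the labels, and the p-values cover only the spread between these libraries, which may be technical. The noradrenergic neuroblastoma markers were strongly present in every library, summing to 4917 and 5081 CPM in shCDK5RAP3 and 7952 and 8490 CPM in shControl. MYCN, which is amplified in this line, supplied most of these sums, with 2813 and 2881 CPM in shCDK5RAP3 and 4674 and 4921 CPM in shControl. Of the 11 noradrenergic markers 9 fell and 1 rose (edgeR adjusted p under 0.05), where 21.8% of all tested genes fell and 19.7% rose. The 9 fibroblast and mesenchymal markers summed to 540.1 and 529.6 CPM in shCDK5RAP3 and 834.0 and 816.3 CPM in shControl, with FAP at 0 throughout. Of the 8 tested ones 5 fell and 1 rose, against the same shares of all tested genes. Schwann cell markers summed to 17.4 and 17.1 CPM in shCDK5RAP3 and 33.9 and 32.8 CPM in shControl, with SOX10 at 0. Leukocyte, endothelial and epithelial markers each summed to no more than 4.63 CPM in shCDK5RAP3 and 8.12 CPM in shControl, with CD3E and CDH1 at 0. The part of these marker differences in the values below was not tested, and in bulk RNA fewer cells of a type and less RNA per cell cannot be told apart.

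After knockdown of CDK5RAP3 the ligand WNT6, the lipid transferase PORCN, AXIN2, the R-spondin receptors and the secreted decoys were lower, while the Frizzled, ROR and Dishevelled families had genes that rose beside genes that fell. Of the 58 genes, 41 had enough counts to be tested: 16 fell, 8 rose and 17 did not pass (edgeR adjusted p under 0.05 over all 18775 tested genes). The share that passed was 58.5%, against 41.5% of all tested genes. The share that fell was 39.0%, against a background of 21.8%. The share that rose was 19.5%, close to the background of 19.7%. For 29 of the 41 genes the groups stood apart, 70.7%, a share near the 71.4% of all tested genes. The median log2 fold change was -0.18, against 0.00 over all tested genes. For 14 genes the call held in all 13 alternative fits. Those were WNT6, WNT11, PORCN, FZD7, ROR2, AXIN2, TCF7, TCF7L1, SFRP1, FRZB, LGR4 and LGR5 among the lower genes, and FZD6 and DVL3 among the higher. The other 10 (APC, DKK1, DKK3, DVL1, FZD1, FZD4, FZD5, LRP5, ROR1 and WNT5B) all lost their call without shCDK5RAP3 replicate 1, without shCDK5RAP3 replicate 2, and with no filter on low counts. Only 2 genes rose with either shCDK5RAP3 library left out, and 3 rose without shControl replicate 2.

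**Figure D1:**
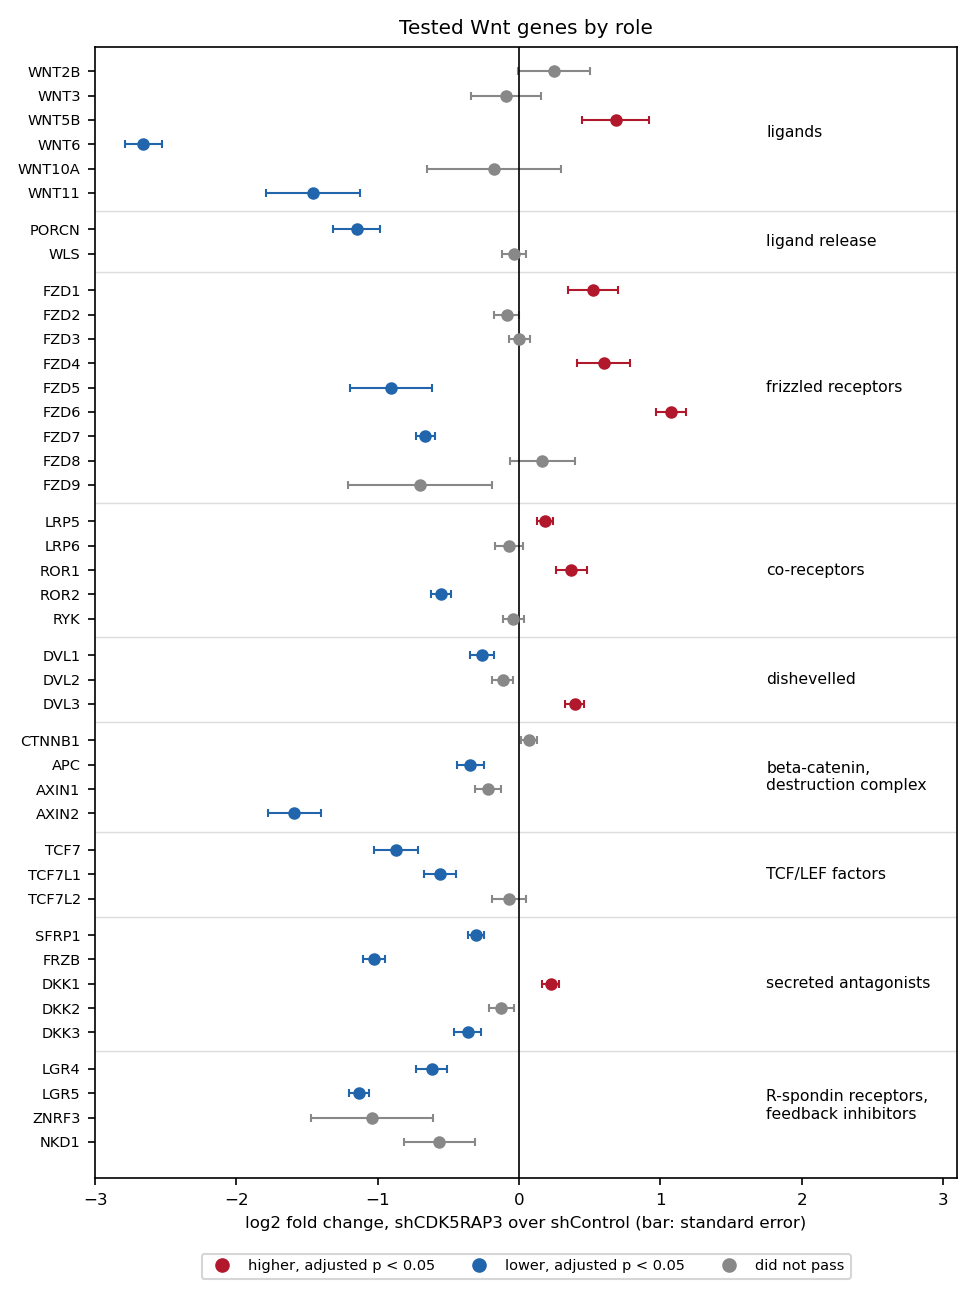
Log2 fold change of each of the 41 tested Wnt genes, shCDK5RAP3 over shControl, on the x axis, with the genes down the page by role. Points are edgeR estimates and bars their standard errors; red marks the 8 genes that rose, blue the 16 that fell and grey the 17 that did not pass. WNT6 lies farthest left at -2.66 and FZD6 farthest right at 1.07.

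Among the ligands, WNT6 fell most, and it was the chief Wnt transcript of these cells. WNT6 (ENSG00000115596, GRCh38 chr2:218859821-218874233), a ligand with known roles in epithelia and the neural crest, had 126 and 139 counts in the shCDK5RAP3 libraries, against 790 and 882 in the shControl libraries. It averaged 4.56 ± 0.202 CPM in shCDK5RAP3 and 28.8 ± 2.14 CPM in shControl (SD, n = 2 each), 15.8% of the control level (log2 fold change -2.66 ± 0.13 SE, edgeR adjusted p = 2.06e-06). Both shCDK5RAP3 libraries lay far below both shControl libraries, and no other Wnt gene tested here moved as far in either direction. The promoter of WNT6, from RefSeq (GRCh38.p14, chr2:218859555-218859854, plus strand, 250 bases before to 50 after the RefSeq start, which is not the GENCODE start given above), is shown because its gene changed most.

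WNT6 promoter: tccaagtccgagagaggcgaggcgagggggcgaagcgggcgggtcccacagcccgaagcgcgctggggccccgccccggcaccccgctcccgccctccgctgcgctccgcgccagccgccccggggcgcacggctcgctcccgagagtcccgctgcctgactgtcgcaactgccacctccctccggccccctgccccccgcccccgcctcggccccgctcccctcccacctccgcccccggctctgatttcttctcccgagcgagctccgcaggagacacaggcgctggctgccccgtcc

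The letters CTTTGAA and CTTTGAT, forms of the word that TCF/LEF factors bind, are on neither strand of that window. They begin alike but cannot both match at 1 place, and 2409 of all 35116 RefSeq promoter windows (6.86%) hold at least 1 of them on either strand. Of the 52 windows that matched 42 of the Wnt genes, 1 did, that of DKK1. The other Wnt genes had no matched window, so their promoters were not searched. Among them were WNT11, FZD6, FZD7, AXIN2, SFRP1, DKK3 and LGR5.

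WNT11, a ligand known for signalling without beta-catenin, had 20 and 24 counts in shCDK5RAP3, against 52 and 69 in shControl (log2 fold change -1.46 ± 0.33 SE, edgeR adjusted p = 0.00677). WNT5B, also mostly a ligand of the branches without beta-catenin, had 93 and 89 counts in shCDK5RAP3, against 57 and 56 in shControl, and rose (log2 fold change 0.68 ± 0.24 SE, edgeR adjusted p = 0.045). All 3 genes that passed had groups that did not overlap. WNT2B, WNT3 and WNT10A did not pass, with log2 fold changes of 0.25, -0.09 and -0.18 and groups that overlapped. WNT2B shares 2661 exon bases, 21.2% of its exon length, with ST7L on the opposite strand. ST7L had 476 and 430 counts in shCDK5RAP3 and 382 and 419 in shControl, and did not pass. Reads of the shared stretch cannot be told apart without strand, so the level of WNT2B is uncertain. FBXL14, which overlaps WNT5B on the opposite strand without sharing exon bases, was higher too (log2 fold change 0.48, edgeR adjusted p = 0.00702). The sources do not say whether strand was used in counting.

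Per kilobase of exon (RPKM, CPM divided by the length of all exons of a gene), the 19 ligands summed to 4.94 ± 0.191 in shCDK5RAP3 and 19.8 ± 1.61 in shControl (SD, n = 2 each). WNT6 made up 54.0% and 54.4% of that sum in the shCDK5RAP3 libraries, against 86.1% and 85.2% in the shControl libraries. With the length of the principal transcript in place of all exons, an alternative chosen after seeing the data, the shares were 40.6% and 42.2% in shCDK5RAP3 and 80.2% in both shControl libraries. WNT5B made up 15.8% and 13.8% of the sum over all exons in shCDK5RAP3, against 2.46% and 2.14% in shControl. WNT3, a ligand of the beta-catenin branch, accounted for 11.4% and 14.8% in shCDK5RAP3 and 3.51% and 3.49% in shControl, although its own counts of 68 and 96 in shCDK5RAP3 and 82 and 92 in shControl overlapped. The order below WNT6 depended on the length used. With the principal transcript WNT5B held 22.1% and 20% in shCDK5RAP3, WNT3 11.1% and 14.8%, and WNT2B 13.8% and 10.7%. WNT5B thus came next in both of these libraries. The WNT2B share is uncertain because of the overlap with ST7L.

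The remaining 13 ligands were too low to test. WNT1, WNT2, WNT3A, WNT7A, WNT8A and WNT9B had no count in any library, which at this depth allows up to 3 counts per library, or 0.101 to 0.105 CPM. WNT4, WNT5A, WNT7B, WNT8B, WNT9A, WNT10B and WNT16 had between 0 and 27 counts. The highest of these was WNT8B, with 0 and 3 counts in shCDK5RAP3 and 5 and 27 in shControl. WNT5A, the best known ligand of ROR2, had 5 and 0 counts in shCDK5RAP3 and 3 and 5 in shControl, so nearly none was seen in either group.

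Of the pair of genes that ready and release the ligands, PORCN fell and WLS did not pass. PORCN, the enzyme that attaches the lipid to Wnt proteins, had 133 and 131 counts in shCDK5RAP3, against 306 and 279 in shControl (log2 fold change -1.15 ± 0.17 SE, edgeR adjusted p = 0.000637). The shCDK5RAP3 values were the lower ones, with no overlap between groups. WLS, the carrier that takes lipid-modified Wnts to the cell surface, had 1133 and 1125 counts in shCDK5RAP3 and 1195 and 1111 in shControl, which overlapped (log2 fold change -0.03).

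The Frizzled receptors, which bind the ligands, moved in both directions: FZD6, FZD4 and FZD1 rose, FZD7 and FZD5 fell, and FZD2, FZD3, FZD8 and FZD9 did not pass. FZD6, a receptor known mainly for tissue polarity, had 1074 and 1126 counts in shCDK5RAP3, against 474 and 568 in shControl. Its level was 37.8 ± 0.314 CPM in shCDK5RAP3 and 18.0 ± 2.23 CPM in shControl (SD, n = 2 each), 2.11-fold higher (log2 fold change 1.07 ± 0.11 SE, edgeR adjusted p = 8.87e-05). FZD7, a receptor of the beta-catenin branch in stem cells, had 1513 and 1620 counts in shCDK5RAP3, against 2546 and 2399 in shControl (log2 fold change -0.66 ± 0.07 SE, edgeR adjusted p = 0.000117). For FZD6 and FZD7 the gap between groups was several times the gap between libraries of a group. FZD5 had 41 and 57 counts in shCDK5RAP3, against 75 and 108 in shControl (log2 fold change -0.90 ± 0.29 SE, edgeR adjusted p = 0.0331). FZD1 had 185 and 193 counts in shCDK5RAP3, against 131 in each shControl library (log2 fold change 0.52 ± 0.18 SE, edgeR adjusted p = 0.0394).

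FZD4, the receptor for norrin as well as Wnts, had 302 and 333 counts in shCDK5RAP3, against 245 and 173 in shControl (log2 fold change 0.60 ± 0.19 SE, edgeR adjusted p = 0.0323). The groups did not overlap, but without shControl replicate 2 the log2 fold change was 0.37 and no longer passed (edgeR adjusted p = 0.147). FZD4 also shares 1399 exon bases, 18.9% of its exon length, with PRSS23 on the opposite strand, a protease gene with 1198 and 1183 counts in shCDK5RAP3 and 187 and 176 in shControl (log2 fold change 2.71 ± 0.11 SE, edgeR adjusted p = 8.33e-07). Reads of the shared stretch cannot be told apart without strand, so the rise of FZD4 is uncertain.

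The makeup of the Frizzled family differed more than its summed level. All 10 genes together had 49.7 ± 0.0371 RPKM in shCDK5RAP3 and 53.4 ± 1.99 RPKM in shControl (SD, n = 2 each). FZD7 supplied 27.6% and 28.6% of it in shCDK5RAP3, against 41.6% and 41.2% in shControl. FZD6 supplied 18.6% and 18.9% in shCDK5RAP3, against 7.36% and 9.25% in shControl. FZD2, with 31.2% and 30.6% in shCDK5RAP3 and 31.0% and 30.2% in shControl, stood above FZD7 in both shCDK5RAP3 libraries and below it in both shControl libraries, and FZD3 supplied 14.5% and 13.8% in shCDK5RAP3 and 13.5% and 12.8% in shControl. FZD10 had no count in any library.

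**Figure D2:**
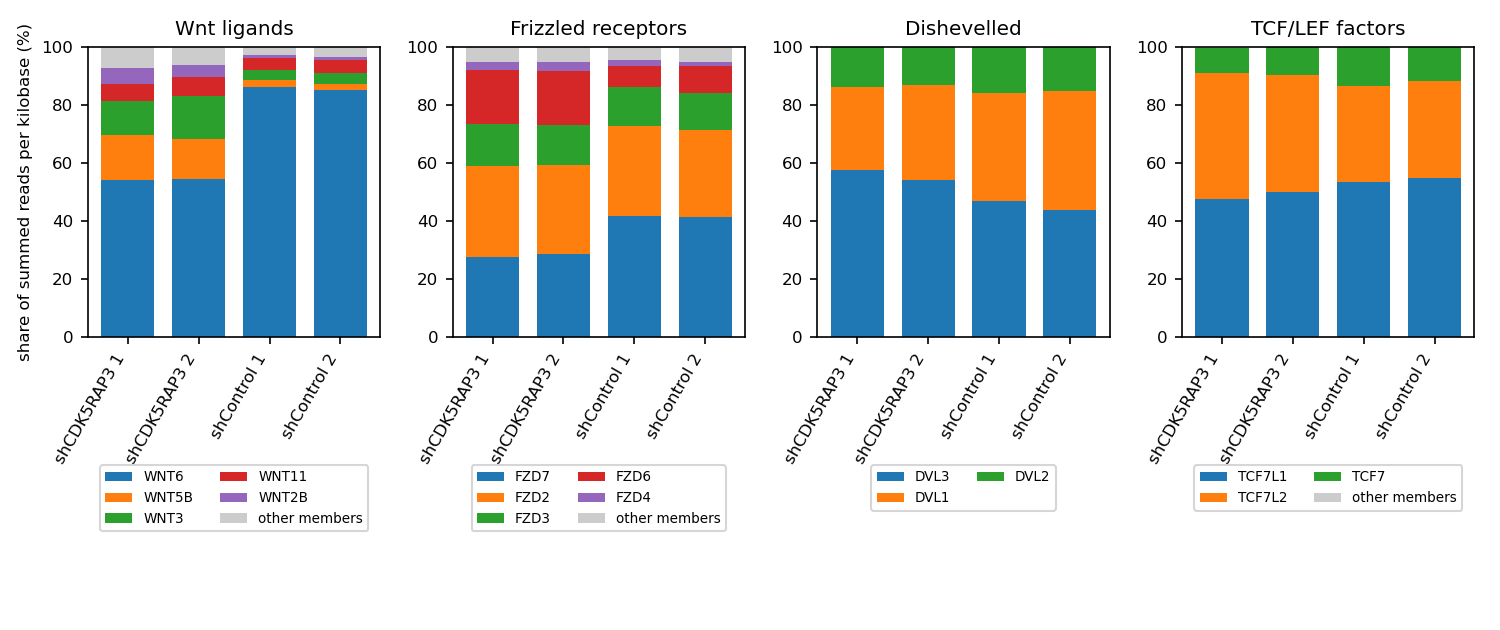
Share of each family's summed RPKM taken by its members, 1 stacked bar per library, with the shCDK5RAP3 bars left of the shControl bars. The y axis is percent of the family's level. The WNT6 part of the ligand bars is 54.0% and 54.4% in shCDK5RAP3 and 86.1% and 85.2% in shControl, and the FZD6 part of the Frizzled bars is taller in both shCDK5RAP3 libraries.

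Of the co-receptors of the beta-catenin branch, LRP5 rose slightly and LRP6 did not pass. LRP5, the more abundant of the pair, had 6285 and 6504 counts in shCDK5RAP3, against 5677 and 5555 in shControl (log2 fold change 0.18 ± 0.06 SE, edgeR adjusted p = 0.0343). LRP6 overlapped between groups (log2 fold change -0.07), and was lower without shControl replicate 2 (-0.22, edgeR adjusted p = 0.0468). Together they had 44.5 ± 0.513 RPKM in shCDK5RAP3 and 40.6 ± 2.00 RPKM in shControl (SD, n = 2 each).

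The ROR receptors, tyrosine kinase-like receptors of the branches without beta-catenin, moved in opposite directions. ROR2 had 2713 and 2551 counts in shCDK5RAP3, against 3862 and 3857 in shControl (log2 fold change -0.55 ± 0.07 SE, edgeR adjusted p = 0.000286). ROR1 had 955 and 997 counts in shCDK5RAP3, against 828 and 678 in shControl (log2 fold change 0.37 ± 0.11 SE, edgeR adjusted p = 0.0261). Without shControl replicate 2 the ROR1 value was 0.23 and did not pass (edgeR adjusted p = 0.135). Neither gene's groups overlapped, whereas those of RYK did (log2 fold change -0.04). ROR1-AS1, an antisense gene that overlaps ROR1 without sharing exon bases, had 54 and 97 counts in shCDK5RAP3, against 486 and 463 in shControl (log2 fold change -2.66 ± 0.23 SE, edgeR adjusted p = 4.17e-05).

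Among the Dishevelled genes, which relay the signal from Frizzled, DVL3 rose, DVL1 fell and DVL2 did not pass. DVL3 had 7129 and 6892 counts in shCDK5RAP3, against 5439 and 5213 in shControl (log2 fold change 0.39 ± 0.07 SE, edgeR adjusted p = 0.00134). DVL1 had 2119 and 2493 counts in shCDK5RAP3, against 2589 and 2920 in shControl (log2 fold change -0.26 ± 0.09 SE, edgeR adjusted p = 0.036). The 2 groups of DVL1 lay close together, and without shCDK5RAP3 replicate 1 its value was -0.17 and did not pass (edgeR adjusted p = 0.292). Over all exons DVL3 led the family in every library, with 57.7% and 54.2% of its RPKM in shCDK5RAP3 and 47.0% and 43.8% in shControl. With the principal transcript's length it led in both shCDK5RAP3 libraries, with 52.8% and 49.6%, while in shControl replicate 2 DVL1 had 40.3% and DVL3 39.5%. The family sum was 67.7 ± 0.368 RPKM in shCDK5RAP3 and 63.6 ± 0.949 RPKM in shControl (SD, n = 2 each).

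CTNNB1, the gene of beta-catenin itself, had 8825 and 9003 counts in shCDK5RAP3 and 8421 and 8519 in shControl, a log2 fold change of 0.07 ± 0.06 SE that did not pass (edgeR adjusted p = 0.36). Its groups did not overlap, and its protein was not measured. Of the 3 genes of the destruction complex, AXIN2 and APC fell. AXIN2, a scaffold that is also a standard target gene of beta-catenin, had 71 and 77 counts in shCDK5RAP3, against 221 and 224 in shControl. It stood at 33.2% of the control level (log2 fold change -1.59 ± 0.19 SE, edgeR adjusted p = 0.000205), the next largest change among these genes after WNT6. AXIN2 shares 1316 exon bases, 25.2% of its exon length, with AC004805.1 on the same strand. AC004805.1 had 4 and 0 counts in shCDK5RAP3 and 0 in both shControl libraries. Strand cannot tell reads of that shared stretch apart. APC, the large scaffold, had 1727 and 1669 counts in shCDK5RAP3, against 2357 and 1948 in shControl (log2 fold change -0.35 ± 0.10 SE, edgeR adjusted p = 0.0193). Without shControl replicate 1 the APC value was -0.20 and did not pass (edgeR adjusted p = 0.102). AXIN1 had 1058 and 1050 counts in shCDK5RAP3 and 1141 and 1308 in shControl (log2 fold change -0.22 ± 0.09 SE, edgeR adjusted p = 0.0893), and passed without shControl replicate 1 (-0.31, edgeR adjusted p = 0.0347), but was -0.12 without shControl replicate 2 (edgeR adjusted p = 0.41).

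Of the TCF/LEF factors, which carry beta-catenin to DNA, TCF7 and TCF7L1 fell. TCF7 had 173 and 186 counts in shCDK5RAP3, against 344 and 311 in shControl (log2 fold change -0.87 ± 0.16 SE, edgeR adjusted p = 0.00205). TCF7L1, known mainly as a repressor, had 418 and 424 counts in shCDK5RAP3, against 592 and 645 in shControl (log2 fold change -0.56 ± 0.11 SE, edgeR adjusted p = 0.00364). TCF7L2 had overlapping groups (log2 fold change -0.07), and LEF1 was too low to test, with 3 and 0 counts in shCDK5RAP3 and 0 in both shControl libraries. The family summed to 6.74 ± 0.353 RPKM in shCDK5RAP3 and 8.93 ± 0.352 RPKM in shControl (SD, n = 2 each). TCF7L2 took 43.7% and 40.4% of that sum in shCDK5RAP3, against 33.0% and 33.7% in shControl. TCF7L1 stayed the highest of the family in every library over all exons, but with the principal transcript's length TCF7L2 stood above it in shCDK5RAP3 replicate 1. TCF7 shares 210 exon bases with SKP1 on the opposite strand, which was higher (log2 fold change 0.30, edgeR adjusted p = 0.00328).

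Of the secreted antagonists, SFRP1, FRZB and DKK3 fell, DKK1 rose and DKK2 did not pass. SFRP1, a decoy that binds Wnt ligands, had 9122 and 9464 counts in shCDK5RAP3, against 11679 and 11230 in shControl (log2 fold change -0.31 ± 0.06 SE, edgeR adjusted p = 0.00284). FRZB, a related decoy, had 863 and 919 counts in shCDK5RAP3, against 1807 and 1815 in shControl, which was 49.1% of the control level (log2 fold change -1.03 ± 0.08 SE, edgeR adjusted p = 1.81e-05). Neither gene's groups overlapped, and SFRP2 was too low to test, with 0 and 4 counts in shCDK5RAP3 and 0 in both shControl libraries. These decoys together had 76.9 ± 0.294 RPKM in shCDK5RAP3 and 103 ± 2.59 RPKM in shControl (SD, n = 2 each).

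DKK1, an antagonist that binds LRP5 and LRP6, was the highest of all these genes by RPKM, with 117 ± 4.02 in shCDK5RAP3 and 99.8 ± 2.11 in shControl (SD, n = 2 each). It had 7158 and 7788 counts in shCDK5RAP3, against 6274 and 6496 in shControl (log2 fold change 0.22 ± 0.06 SE, edgeR adjusted p = 0.0173). DKK3, a divergent relative, had 846 and 909 counts in shCDK5RAP3, against 1192 and 1058 in shControl, and fell (log2 fold change -0.36 ± 0.09 SE, edgeR adjusted p = 0.0136). DKK2 overlapped between the groups (log2 fold change -0.13). DKK1 shares 212 exon bases with PRKG1-AS1 on the opposite strand, which did not pass. The DKK1 promoter (RefSeq, GRCh38.p14, chr10:52314031-52314330, plus strand) is shown because it alone among the matched promoters holds a TCF/LEF word; capitals mark the word, which starts at position -95 from the RefSeq start.

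DKK1 promoter: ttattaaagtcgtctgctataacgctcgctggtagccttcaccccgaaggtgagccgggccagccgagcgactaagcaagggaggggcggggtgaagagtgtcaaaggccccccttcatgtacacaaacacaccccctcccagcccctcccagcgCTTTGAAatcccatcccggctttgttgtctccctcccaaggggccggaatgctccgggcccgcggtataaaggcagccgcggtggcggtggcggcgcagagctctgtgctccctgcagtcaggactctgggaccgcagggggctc

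The match describes the letters in that window and is not evidence of binding.

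The R-spondin receptors fell. Of the feedback inhibitors grouped with them, ZNRF3 and NKD1 did not pass and RNF43 was not tested. LGR5, an R-spondin receptor best known as a marker of intestinal stem cells and a target of beta-catenin, had 2563 and 2531 counts in shCDK5RAP3, against 5814 and 5353 in shControl. It averaged 87.7 ± 2.98 CPM in shCDK5RAP3 and 193 ± 11.9 CPM in shControl (SD, n = 2 each), 45.5% of the control level (log2 fold change -1.14 ± 0.07 SE, edgeR adjusted p = 6.88e-06). LGR4, its close relative, had 411 and 442 counts in shCDK5RAP3, against 674 and 632 in shControl (log2 fold change -0.62 ± 0.11 SE, edgeR adjusted p = 0.00191). For both receptors the groups stood well apart. TSPAN8, which overlaps LGR5 on the opposite strand without sharing exon bases, had 44 and 62 counts in shCDK5RAP3, against 186 and 221 in shControl (log2 fold change -1.94 ± 0.23 SE, edgeR adjusted p = 0.00022).

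ZNRF3, a ligase that removes Frizzled from the surface, had 664 and 303 counts in shCDK5RAP3 and 1434 and 561 in shControl. Replicate 1 was the higher library in both groups and the groups overlapped, so the log2 fold change of -1.04 ± 0.43 SE did not pass (edgeR adjusted p = 0.0832). It was -1.74 without shCDK5RAP3 replicate 1 (edgeR adjusted p = 0.0478) and -1.57 without shControl replicate 2 (edgeR adjusted p = 0.00138), but -0.57 without shCDK5RAP3 replicate 2 (edgeR adjusted p = 0.421) and -0.21 without shControl replicate 1 (edgeR adjusted p = 0.657). NKD1, an inhibitor that binds Dishevelled, had 53 and 56 counts in shCDK5RAP3 and 73 and 88 in shControl (log2 fold change -0.57 ± 0.25 SE, edgeR adjusted p = 0.104). RNF43, the other ligase, was too low to test, with 0 and 10 counts in shCDK5RAP3 and 11 and 4 in shControl.

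**Figure D3:**
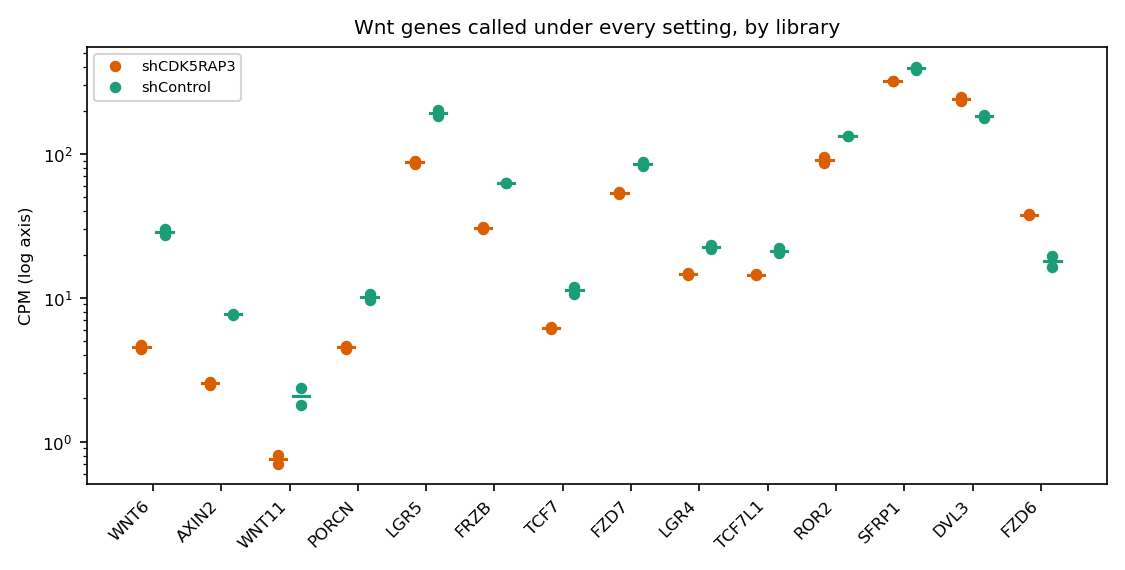
CPM on a log axis for the 14 Wnt genes whose call held in every fit, with shCDK5RAP3 points left of shControl points, each point 1 library and each bar the group mean. The first 12 genes, WNT6 to SFRP1, lie lower in both shCDK5RAP3 libraries, and DVL3 and FZD6 lie higher.

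**Figure D4:**
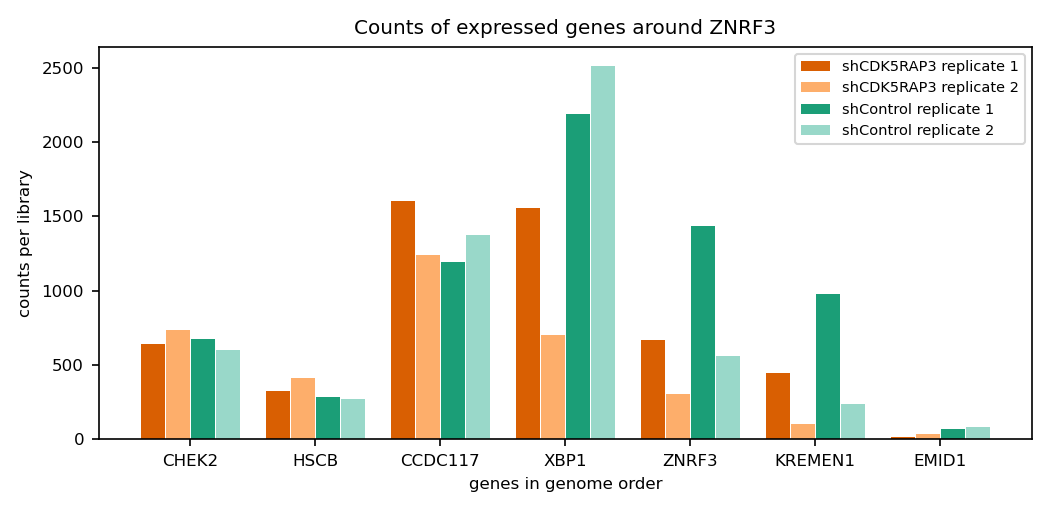
Counts per library of ZNRF3 and the expressed genes within 200 kb of it, in genome order, with shCDK5RAP3 bars left of shControl bars. ZNRF3 and KREMEN1 are higher in replicate 1 of both groups, with 664 and 303 ZNRF3 counts in shCDK5RAP3 and 1434 and 561 in shControl.

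Words of the 3′ UTR were looked at because earlier results of these data tied the letters AACACCT and ACACCTA, which overlap in AACACCTA, to lower transcripts. On the transcript strand of the longest annotated 3′ UTR (GENCODE 29), at least 1 of these words was in 8 of the 41 tested Wnt genes (19.5%), against 2076 of all tested protein-coding genes (15.3%). Of the 8 genes PORCN, APC and SFRP1 fell and DKK1 rose, with a median log2 fold change of -0.19. Of the 33 Wnt genes without a word 13 fell and 7 rose, with a median of -0.18. Over all tested protein-coding genes, 884 of the 2076 with a word fell and 295 rose. Of the 11485 without a word 2715 fell and 2804 rose. Their medians were -0.24 with a word and 0.01 without. Genes with a word had longer 3′ UTRs, with median lengths of 4155 bases in the 8 Wnt genes and 1350 bases in the 33 without. Over all tested protein-coding genes the median lengths were 3084.5 bases with a word and 1173 bases without. The part of length in the differences above was not tested. The median log2 fold changes of the Wnt genes with and without a word were nearly alike. The sites in PORCN, APC and DKK1, which are among the 4 genes with a word that passed the test, are shown with the word in capitals.

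PORCN site: cttgacccccAACACCTcaacacacaca
APC site: aggagtgaatACACCTAcctggtgcctt
DKK1 site: gcattccaatAACACCTtccaaaaacct

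These 3 sites hold 1 of the words each.

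Of the lists of genes next to the core set in the pathway, 5 of 6 held both higher and lower genes. Their counts stand against 41.5% of all tested genes that passed, 21.8% lower and 19.7% higher. Of 20 partners of the destruction complex 8 fell, 2 rose and 10 did not pass, 50% called, with a median log2 fold change of -0.04. TNKS, the enzyme that marks axin for degradation, had 2017 and 2033 counts in shCDK5RAP3, against 4508 and 3913 in shControl (log2 fold change -1.06 ± 0.08 SE, edgeR adjusted p = 2.06e-05). BTRC and FBXW11, the paired recognition subunits of the ligase for beta-catenin, fell with log2 fold changes of -0.71 and -0.73, and CTNNBIP1, which keeps beta-catenin from TCF factors, with -0.83. Of 20 nuclear cofactors of beta-catenin 5 fell, 3 rose and 12 did not pass, 40% called, a share close to the background (median -0.07). The co-activators BCL9 and BCL9L fell with log2 fold changes of -0.68 and -0.74, the kinase HIPK2 with -0.56, and TBL1X, a subunit of a corepressor complex, rose with 0.87. HIPK2 did not pass without shCDK5RAP3 replicate 2 (log2 fold change -0.41, edgeR adjusted p = 0.0681).

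Of 27 other secreted and membrane modulators 12 were tested, of which 3 fell and 9 did not pass, 25.0% called, with a median log2 fold change of -0.33. Those were KREMEN2, a receptor for Dickkopf proteins (-1.11), ADGRA2, a partner of Frizzled for WNT7 ligands (-1.02), and DKKL1 (-2.23), a low gene named after its value was seen. KREMEN2 did not pass without shCDK5RAP3 replicate 2 (log2 fold change -0.92, edgeR adjusted p = 0.0646). Of 20 tested planar cell polarity genes 6 fell, 5 rose and 9 did not pass, 55.0% called (median -0.06). The core polarity genes VANGL2 and CELSR3 fell with log2 fold changes of -1.07 and -0.64, INVS with -0.66, and RHOA, the small GTPase at the end of that branch, rose with 0.69. INVS did not pass without shCDK5RAP3 replicate 1 (log2 fold change -0.56, edgeR adjusted p = 0.0636). Of 13 tested genes of Wnt secretion and lipid handling 6 fell, 5 rose and 2 did not pass, 84.6% called (median -0.10). The cargo receptors TMED2 and TMED10 fell with log2 fold changes of -1.64 and -1.14, and the glypicans GPC3 and GPC6, which hold Wnts at the cell surface, with -1.46 and -1.39.

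Known beta-catenin target genes outside the core set went both ways. The 18 tested genes included 7 that rose and 5 that fell, 66.7% called, and the median log2 fold change was -0.22. CCND1, encoding cyclin D1, had 78896 and 81621 counts in shCDK5RAP3, against 18041 and 17485 in shControl (log2 fold change 2.17 ± 0.05 SE, edgeR adjusted p = 1.12e-07). FOSL1, a subunit of the AP-1 transcription factor, rose with a log2 fold change of 2.45, and ID2, an inhibitor of basic helix-loop-helix factors, with 2.28. SP5, among the most direct targets in many tissues, had 28 and 18 counts in shCDK5RAP3, against 65 and 66 in shControl, and fell to 35.2% of the control level (edgeR adjusted p = 0.00633). All of these genes also answer to other pathways. SP5 thus moved with AXIN2 and LGR5, and CCND1, FOSL1 and ID2 moved the other way.

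**Figure D5:**
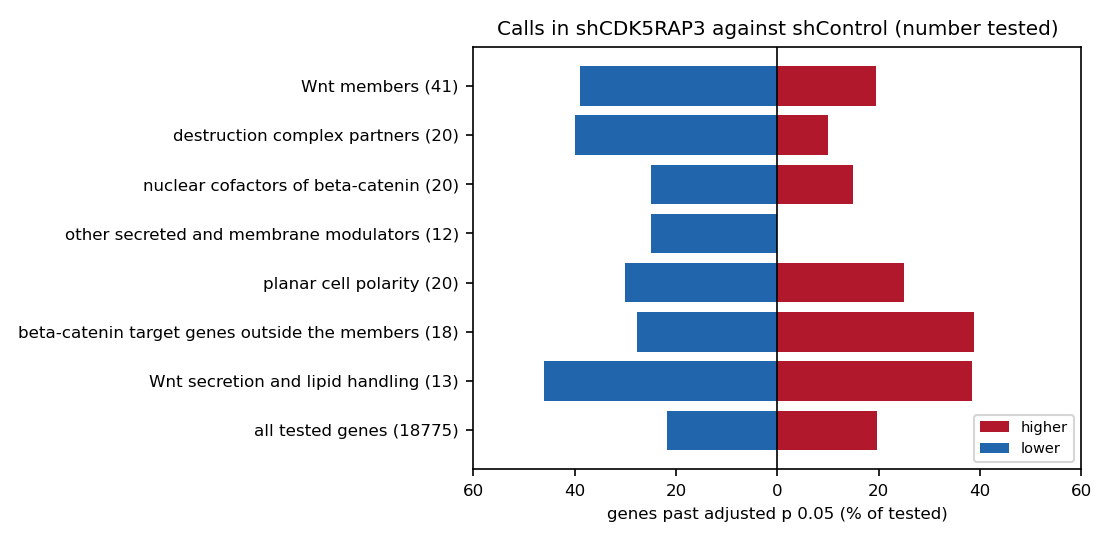
Percent of tested genes that rose (right of 0) or fell (left of 0) in shCDK5RAP3 against shControl, for the core Wnt set, 6 lists of neighbouring pathway genes and all tested genes, with the number tested in brackets. In the core set 39.0% fell and 19.5% rose, against 21.8% and 19.7% of all tested genes.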

How the data were processed

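The authors deposited 1 table of whole-number read counts per Ensembl gene, and the values were treated as raw counts. HISAT2 2.2.0, StringTie and build hg38 are named, without roles, per the submitters' processing notes. The sources used here do not give the annotation release, strand setting or handling of multimapping reads, so paralogs and overlapping genes are uncertain. Per the labels' protocols, total RNA was made into libraries with an Illumina TruSeq kit. Identifiers were matched to GENCODE 29 (56591 of 64252; the other 7661 held 1.82% to 1.90% of a library's counts and stayed in).

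Counts were tested in R 4.3.3 with edgeR 4.0.16 (TMM factors, default filter by group, quasi-likelihood test, Benjamini-Hochberg adjustment over 18775 genes, threshold 0.05). Fold changes are shCDK5RAP3 over shControl. Sample titles gave the groups and replicate numbers. The difference between replicates 1 and 2, in log2 CPM, correlated at 0.05 between the groups over all tested genes. Same-numbered libraries were not paired. Alternatives were other scalings, other filters, DESeq2 1.42.0, limma-trend in limma 3.58.1, a robust fit, a replicate block, a stricter threshold (0.01) and fits that leave out 1 library. The genes, the lists and the 3′ UTR words were chosen with earlier results of these data known. Named genes were CDK5RAP3, all genes of the Wnt set, and per list up to 4 with the largest change among those past the threshold, with groups that stand apart and a mean log2 CPM of 0 or more. Intervals at a count of 0 cover counting error only.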

Additional observations from a re-analysis of the deposited data

How the results depend on the processing

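Changing the processing moved the Wnt genes that rose more than those that fell. The higher count, 8 of 41, was 2 with no filter on low counts (51 Wnt genes tested) and 2 at a threshold of 0.01, and 2 to 6 with each library left out. The lower count, 16, stayed within 1.5 times under all of the alternatives, at 12 to 16 with each library left out. Over all genes, 1966 rose and 2522 fell with no filter, 2421 rose at the threshold of 0.01, and leaving out each library gave 2233 to 3447 higher and 2844 to 3696 lower. CDK5RAP3 had log2 fold changes of -0.77 to -0.60 with each library left out. The fit with no filter tested 33921 genes, and at the threshold of 0.01 2814 of all genes fell. With DESeq2 6 Wnt genes rose and 15 fell, FZD1, FZD5 and WNT5B losing their call. Over all genes 3265 rose and 3432 fell with DESeq2. With a replicate block, which nothing in the labels supports, 8 rose and 18 fell, AXIN1 and ZNRF3 being the added ones (ZNRF3 log2 fold change -1.01, edgeR adjusted p = 4.9e-08); over all genes 4430 rose and 4718 fell.

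The sign turned for 8 genes that did not pass with all 4 libraries. FZD3 was at -0.026 with library size only and -0.0078 with no filter. With each library left out, FZD3 ranged between -0.072 and 0.081, FZD8 between -0.056 and 0.36, LRP6 between -0.22 and 0.093, RYK between -0.13 and 0.045, TCF7L2 between -0.18 and 0.037, WLS between -0.088 and 0.024, WNT3 between -0.33 and 0.12, and WNT10A between -0.44 and 0.15. Other scalings moved the median of all genes by -0.03 to 0.03. Of the 22 genes named from the neighbouring lists 18 passed under all alternatives, and HIPK2, INVS, KREMEN2 and SP5 did not. The cause of these shifts was not tested. Both replicate spread and, for low genes such as WNT10A at 14 to 21 counts, counting error limit what 2 libraries a group can show.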

Other observations

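The fall of WNT6 was not shared by the tested genes around it. WNT10A, the next gene on chromosome 2, begins 6129 bases after WNT6 ends and had a log2 fold change of -0.18 with overlapping groups. Within 200 kb, CYP27A1 (-0.27), FEV (-0.18), CDK5R2 (-0.16), BCS1L (-0.07) and TTLL4 (0.17) did not pass, and RNF25 (0.86, edgeR adjusted p = 0.00034) and STK36 (0.66, edgeR adjusted p = 0.00239) rose.

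ZNRF3 shared its uneven replicates with the next tested gene on chromosome 22. KREMEN1, a Dickkopf receptor whose gene begins 15590 bases after ZNRF3 ends, had 442 and 99 counts in shCDK5RAP3 and 974 and 237 in shControl (log2 fold change -1.15, edgeR adjusted p = 0.209). In CPM, replicate 1 over replicate 2 was 2.27 in shCDK5RAP3 and 2.57 in shControl for ZNRF3, and 4.63 in shCDK5RAP3 and 4.13 in shControl for KREMEN1. Of 15508 tested genes with a mean CPM of at least 1, replicate 1 was at least 2-fold higher in both groups for 15, and at least 2-fold lower in both for 13. Of the genes around them, XBP1 had 1554 and 701 counts in shCDK5RAP3 and 2191 and 2515 in shControl, so its libraries were uneven in shCDK5RAP3 alone. XBP1 fell (log2 fold change -1.06 ± 0.29 SE, edgeR adjusted p = 0.016), and so did EMID1 (-1.56 ± 0.36 SE, edgeR adjusted p = 0.00729). CHEK2, HSCB and CCDC117 did not pass. These genes were chosen after their values were seen.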
